A study of Mus musculus with 8 samples.

Results

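The genes described here are 33 genes of granule neuron differentiation and maturation, chosen by name, and all 33 were found among the 24062 genes counted in whole mouse cerebella at postnatal day 2. They are set out by what their products do: 3 neuronal transcription and splicing factors, 4 nuclear factor I factors, 8 early postmitotic genes of the neurite cytoskeleton and axon growth, 5 adhesion and migration genes, 11 synaptic genes and 2 genes of calcium and cyclic nucleotide signalling. The mutant group was 4 pups with Math1-Cre and Sufu flox/-, and the control group was 4 littermates with Sufu flox/+, all of mixed C57BL/6 background. By the mating described in the labels, every pup of both groups also carried 1 Math1 mgfp allele, and the labels do not say if controls carried the Cre. All mutant cells lacked 1 Sufu allele from the germ line, and the floxed allele could be lost only in cells that use the Math1 (Atoh1) promoter, so effects of the germ-line null and of the Cre deletion cannot be told apart. Each library was polyA RNA from 1 whole cerebellum, so the recombined granule lineage was one part of the tissue sampled.

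Cerebellar granule neurons are born from Atoh1-expressing precursors that divide in the external granule layer under the mitogen Sonic hedgehog, whose signal Sufu restrains. A precursor that leaves the cycle switches on Neurod1 and the contactin Cntn2, extends parallel fibres, migrates inward past Bergmann glia, and only later builds the synapses that parallel fibres make on Purkinje cells. At postnatal day 2 most of this still lies ahead, so late markers are low in normal pups. Several of the genes, such as Fat2, Cbln3 and Neurod1, are known in the cerebellum mainly from the granule lineage, whereas Tubb3, Stmn2, Map2, Mapt, Snap25, Syp and the synapsins are used by neurons of most kinds.

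Sufu itself stood at 31.7, 34.4, 36.8 and 39.8 CPM (counts scaled to library size) in mutants 1 to 4, against 47.7, 51.0, 55.9 and 60.7 CPM in controls 1 to 4, with no overlap. Its log2 fold change was -0.59 (SE 0.11), and Sufu did not pass the test over all genes used below (edgeR adjusted p = 0.381). Counts in genes summed to 21479565 to 26638284 per library, and each of the 33 genes had at least 151 counts in every library. All 10 listed granule precursor genes were measured, Atoh1 at 17.1 to 48.8 CPM in mutants and 17.5 to 22.7 CPM in controls. One library stood apart: 6 Hox genes, known from the brainstem rather than the cerebellum, summed to 4.31 CPM in mutant 4, against 53.8 to 94.3 CPM in mutants 1 to 3 and 85.8 to 106 CPM in controls. The sexes were not balanced: Xist, the RNA of the inactive X chromosome in females, was at 2197, 1.76, 1715 and 0.818 CPM in mutants 1 to 4 and at 1449 to 2089 CPM in controls, so mutants 2 and 4 read as male and the other 6 libraries as female. With mutants 2 and 4 left out, an alternative chosen after seeing the data, 0 of the 33 genes passed, 12 had higher means and 21 lower ones. Dcx, Syn1 and Syp are on the X chromosome, and in that fit their log2 fold changes were 0.19, -0.22 and -0.26. Library titles carry a letter of unstated meaning, P for mutants 1 and 2 and controls 1 and 2, and R for mutants 3 and 4 and controls 3 and 4.

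The 33 genes did not shift as a block. Means were higher in mutants for 13 and lower for 20, with a median log2 fold change of -0.13, where all 15789 genes tested had 8254 higher, 7535 lower and a median of 0.01. No gene of the 33 passed the test at an adjusted p of 0.05 (edgeR quasi-likelihood test, Benjamini-Hochberg over all genes), and of all genes tested 0% passed. At an unadjusted p under 0.05 there were 4 higher genes (Fat2, Nfia, Cadps2 and Pde1c), where 6.94% of all genes were such, and 6 lower ones (Stmn3, Gap43, Syn2, Tubb3, Syp and Grm4), where 5.7% were. DESeq2 also called 0 of the 33, where it called 0.323% of all genes, with 13 at an unadjusted p under 0.05, as were 10.7% of all genes. Mutant values did not overlap control values for 2 higher genes, Nfia and Fat2 (3.6% of all genes), and 3 lower genes, Stmn3, Gap43 and Nrn1 (2.96% of all genes), 5 of 33 in either direction against 6.57% of all genes. These counts were 2 and 9 without mutant 1 (8.16% and 7.71% of all genes), 3 and 9 without control 2 (7.28% and 7.02%) and 5 and 3 without control 4 (6.04% and 4.78%). The number of genes at an unadjusted p under 0.05, 10 in all (12.6% of all genes), was 19 without mutant 1 (20% of all genes) and 5 without control 3 (7.13%). In whole tissue a lower level cannot be told apart between fewer cells of a type and less RNA per cell.

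**Figure D1:**
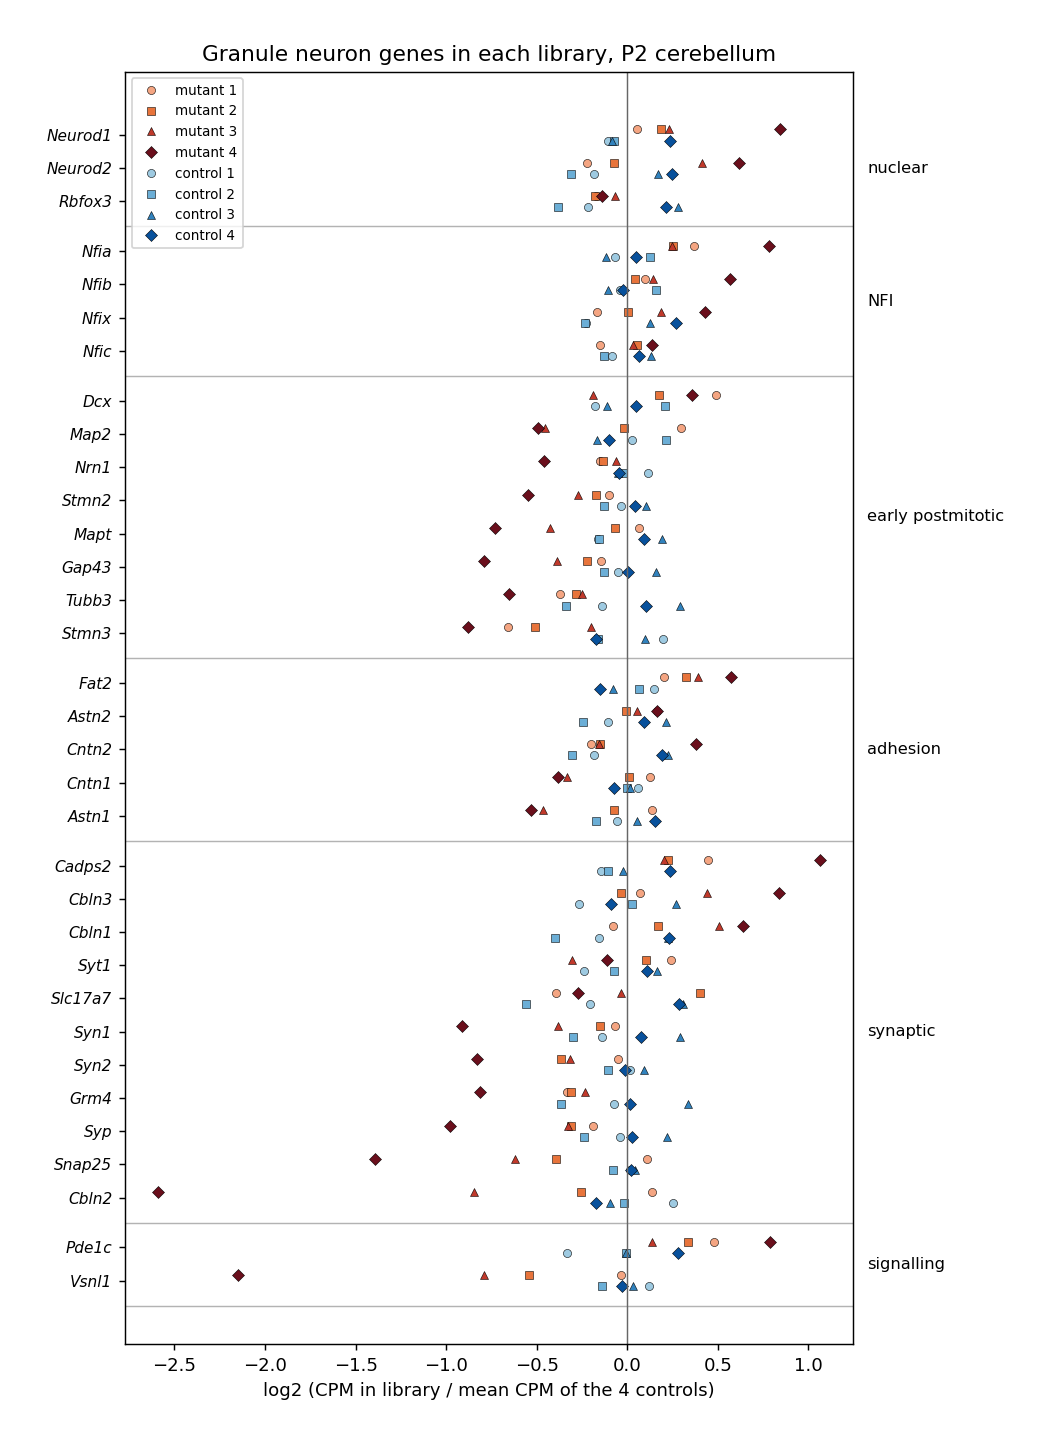
Each row is 1 gene, the points are libraries (mutants above, controls below on each row), and the x axis is the log2 ratio of CPM in a library to the mean of the 4 controls. Mutant 4 (dark diamonds) is the lowest of the 8 libraries for 16 genes, among them Snap25 and Cbln2, and the highest for 12, among them Neurod1, Nfia and Cadps2.

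Mutant 4 was the extreme library for most of the genes. It was the lowest of the 8 libraries for 16 of the 33 genes and the highest for 12, where it was lowest for 23.2% and highest for 25% of all genes tested. The 16 were Tubb3, Stmn2, Stmn3, Gap43, Map2, Mapt, Nrn1, Cntn1, Astn1, Cbln2, Snap25, Syn1, Syn2, Syp, Grm4 and Vsnl1, and the 12 were all 4 nuclear factor I factors, Neurod1, Neurod2, Fat2, Cbln1, Cbln3, Cadps2, Pde1c and Cntn2. Mutant 1, whose Hox sum of 94.3 CPM lay within the control range, was the highest library for 5 genes (Dcx, Map2, Cntn1, Snap25 and Syt1) and the lowest for 1 (Nfic). Without mutant 4 the log2 fold changes of the 5 genes without overlap were 0.29 for Nfia, 0.30 for Fat2, -0.45 for Stmn3, -0.25 for Gap43 and -0.12 for Nrn1.

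Among the nuclear proteins, the neurogenic factors had higher mean levels in mutants and the splicing factor did not. Neurod1, a basic helix-loop-helix factor that granule cells need to differentiate and survive (chromosome 2), was at 155, 169, 175 and 267 CPM in mutants 1 to 4 and at 138, 141, 140 and 175 CPM in controls 1 to 4. Its mean was 191 ± 51.1 CPM in mutants and 149 ± 17.7 CPM in controls (SD, n = 4 each), a log2 fold change of 0.36 (SE 0.17) that did not pass (edgeR adjusted p = 0.396). Control 4 lay above mutants 1 to 3, so the groups overlapped.

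Neurod2, a related factor of later neuronal maturation, was at 70.7, 78.5, 109.9 and 126 CPM in mutants and 72.5, 66.4, 92.8 and 98.0 CPM in controls, and its groups overlapped widely. Without mutant 4 the log2 fold change of Neurod1 was 0.16, and that of Neurod2 was 0.06 in place of 0.23. In both groups the R libraries of Neurod2 stood above the P libraries. Rbfox3, the splicing regulator known as NeuN, was at 103 to 111 CPM in mutants and 89.7 to 142 CPM in controls, and the difference was -0.14 on the log2 scale (SE 0.14).

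The nuclear factor I family encodes DNA-binding proteins that granule neurons use to time axon growth and late gene expression. Nfia (chromosome 4, plus strand) was at 182, 169, 168 and 244 CPM in mutants and at 135, 154, 130.1 and 146 CPM in controls. Every mutant library lay above every control library. The mean was 191 ± 36.0 CPM in mutants and 141 ± 10.9 CPM in controls (SD, n = 4 each), and the log2 fold change of 0.43 (SE 0.13) had an edgeR adjusted p of 0.381.

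Nfib was at 387, 373, 399.8 and 536 CPM in mutants and 352, 404, 336 and 356 CPM in controls, so that only mutant 4 stood clear, and the log2 fold change of 0.23 (SE 0.13) was 0.09 without it. Nfix, at 278 to 421 CPM in mutants and 266 to 377 CPM in controls, and Nfic, at 90.6 to 110.5 CPM in mutants and 91.8 to 110.2 CPM in controls, had log2 fold changes of 0.13 (SE 0.16) and 0.02 (SE 0.10). The summed level of the family was 1312 CPM in mutant 4, 939 to 1025 CPM in mutants 1 to 3 and 848 to 984 CPM in controls. For the 4 factors the median log2 fold change was 0.18, and 0.05 when mutant 4 was left out.

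Among the adhesion and migration genes, Fat2 alone separated the groups. Fat2, a giant protocadherin of granule cells and their parallel fibres (chromosome 11), was at 73.8, 80.2, 84.0 and 95.2 CPM in mutants and at 70.8, 66.9, 60.7 and 57.7 CPM in controls. Mutant 1 was above control 1 by a small margin, and the other mutants stood further off. The mean of 83.3 ± 8.98 CPM in mutants and 64.0 ± 5.96 CPM in controls (SD, n = 4 each) gave a log2 fold change of 0.38 (SE 0.10, edgeR adjusted p = 0.381), the smallest unadjusted p of the 33.

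Astn1, the astrotactin by which migrating granule neurons hold to glial fibres, was at 318, 275, 209 and 200.1 CPM in mutants and 278, 256, 300.4 and 321 CPM in controls. Its P mutants lay among the controls and its R mutants below all of them, and its log2 fold change of -0.21 (SE 0.15) was -0.12 without mutant 4. The partner Astn2, at 80.2 to 90.4 CPM in mutants and 68.1 to 93.6 CPM in controls, had a log2 fold change of 0.10 (SE 0.11). Cntn2, the axonal contactin TAG-1 of newly postmitotic granule cells, was at 136 to 204 CPM in mutants and 127 to 183 CPM in controls, with a log2 fold change of -0.01 (SE 0.16), and Cntn1, which follows it as the cells mature, stood at -0.13 (SE 0.13).

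Of 8 early postmitotic genes, 7 had lower means in mutants, Dcx had a higher one, and the median log2 fold change was -0.26. Their summed level was 7159, 6642, 5946 and 5088 CPM in mutants 1 to 4, against 7107, 6937, 7977 and 7495 CPM in controls 1 to 4. Mutant 1 was within the control range, and mutants 2, 3 and 4 were below it. Without mutant 4 the median was -0.16.

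Stmn3, a stathmin that binds tubulin in growing neurites (chromosome 2, minus strand), was at 424, 471, 585 and 365 CPM in mutants and at 770.1, 599, 717 and 596 CPM in controls. All 4 mutants were below all 4 controls, mutant 3 by a small margin. Its mean was 461 ± 93.3 CPM in mutants and 671 ± 86.9 CPM in controls (SD, n = 4 each), with a log2 fold change of -0.54 (SE 0.16, edgeR adjusted p = 0.381).

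Gap43, a growth cone protein of extending axons (chromosome 16), was at 692, 656, 585 and 441 CPM in mutants and at 739, 699, 853 and 768 CPM in controls. Mutant 1 and control 2 differed by little. The log2 fold change was -0.37 (SE 0.14, edgeR adjusted p = 0.386). Nrn1, the neurite-promoting surface protein neuritin (chromosome 13), was at 96.5, 97.8, 102.9 and 78.1 CPM in mutants and at 116, 105.5, 103.4 and 103.9 CPM in controls, where mutant 3 and control 3 were nearly level. Its log2 fold change was -0.19 (SE 0.10, edgeR adjusted p = 0.425).

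The 3 genes with the most counts, not corrected for transcript length, were Tubb3, Stmn2 and Mapt, which encode a neuronal tubulin, a stathmin and the axonal protein tau. Tubb3 was at 1141, 1212, 1245 and 938 CPM in mutants and at 1343, 1170.4, 1811 and 1585 CPM in controls, a log2 fold change of -0.38 (SE 0.15). Control 2 lay among the mutants. Stmn2 was at 1312, 1249, 1165 and 964 CPM in mutants and at 1376, 1288, 1513 and 1451 CPM in controls, a log2 fold change of -0.26 (SE 0.12), and only mutant 1 overlapped the controls. Mapt was at 1380.2, 1258, 981 and 796 CPM in mutants and at 1178, 1185, 1505 and 1408 CPM in controls, a log2 fold change of -0.26 (SE 0.18) that was -0.13 without mutant 4. For Mapt the P mutants stood above both P controls and the R mutants below both R controls. Dcx, the microtubule protein of migrating neurons, was at 532 to 850.1 CPM in mutants and 536 to 700.5 CPM in controls, and its log2 fold change was 0.23 (SE 0.15). Map2, a microtubule protein of dendrites and cell bodies, ranged over 728 to 1262 CPM in mutants and 913 to 1190.0 CPM in controls, with a log2 fold change of -0.13 (SE 0.18).

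**Figure D2:**
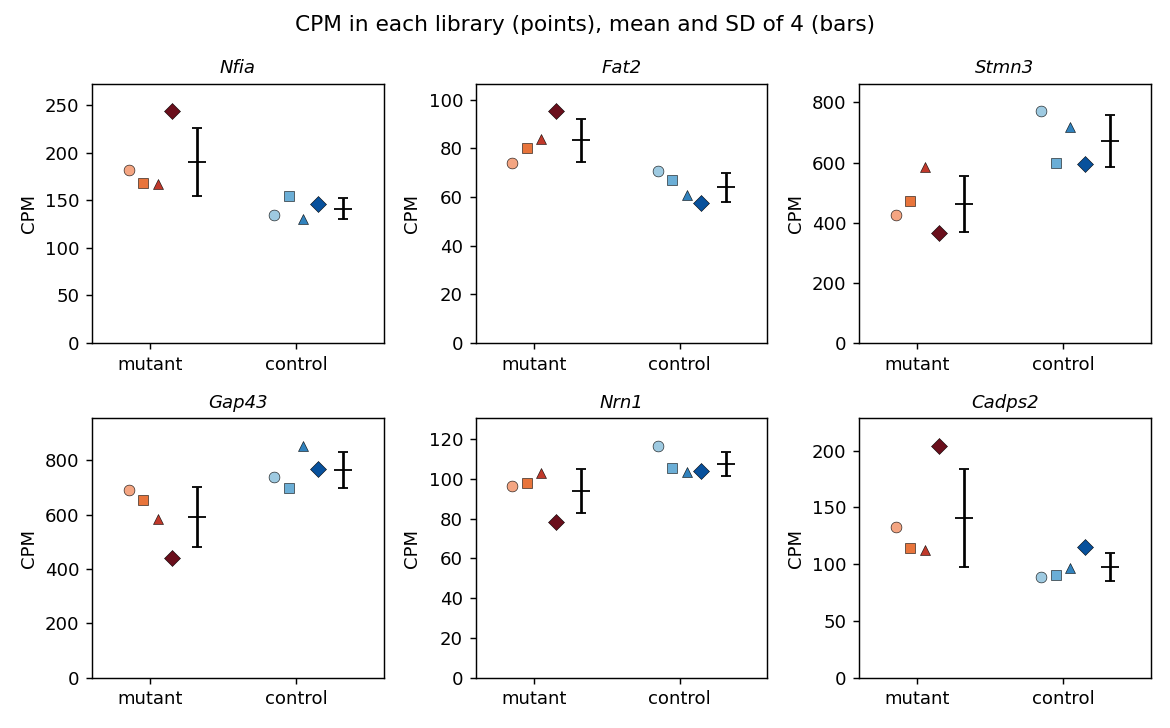
Points are the CPM of each of the 4 mutant (left) and 4 control (right) libraries, and bars are the mean and SD. Nfia and Fat2 lie higher in every mutant than in any control, Stmn3, Gap43 and Nrn1 lie lower, and Cadps2 overlaps because control 4 (115 CPM) exceeds mutants 2 and 3 (114 and 112 CPM).

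Of 11 synaptic genes, 8 had lower means and 3 higher ones, with a median log2 fold change of -0.34, or -0.20 without mutant 4. The 3 higher ones were Cadps2, Cbln1 and Cbln3. The summed level was 2389, 2138, 1992 and 1709 CPM in mutants 1 to 4 and 2243, 2085, 2668 and 2490.2 CPM in controls 1 to 4, so mutants 1 and 2 lay within the control range.

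Cadps2, which primes dense-core vesicles for the release of neurotrophins and is strongly expressed in granule cells (chromosome 6), was at 133, 114, 112 and 204 CPM in mutants and at 88.4, 90.7, 96.2 and 115 CPM in controls. Only control 4 reached the mutant range. Its mean was 141 ± 43.1 CPM in mutants and 97.6 ± 12.1 CPM in controls (SD, n = 4 each), a log2 fold change of 0.53 (SE 0.18, edgeR adjusted p = 0.381) that was 0.29 without mutant 4.

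Cbln1, the cerebellin that granule cells secrete to bind parallel fibres to Purkinje cells, was at 196 to 321 CPM in mutants and 157 to 242 CPM in controls, with a log2 fold change of 0.34 (SE 0.18). Cbln3, its granule cell partner subunit, was low at 7.35 to 13.5 CPM in mutants and 6.27 to 9.09 CPM in controls, with a log2 fold change of 0.37 (SE 0.20). Without mutant 4 these were 0.21 for Cbln1 and 0.17 for Cbln3. Cbln2 differed from both: it was at 6.69 CPM in mutant 4, at 22.5 to 44.3 CPM in mutants 1 to 3 and at 35.8 to 48.0 CPM in controls. Its log2 fold change of -0.59 (SE 0.41) was -0.27 without mutant 4 and -0.96 without mutant 1.

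Syn2, a synapsin that tethers synaptic vesicles (chromosome 6), was at 202, 163, 168 and 118 CPM in mutants and at 212, 195, 223 and 208 CPM in controls, and only mutant 1 overlapped the controls. Its log2 fold change was -0.36 (SE 0.14, edgeR adjusted p = 0.386). Syp, the vesicle protein synaptophysin, was at 322 to 557 CPM in mutants and 537 to 738 CPM in controls, a log2 fold change of -0.42 (SE 0.17). The second synapsin, Syn1, stood at -0.34 (SE 0.19) and Snap25, a subunit of the fusion machinery, at -0.48 (SE 0.24). Snap25, named for its spread after its values were seen, was at 441 CPM in mutant 1 and 155.5 CPM in mutant 4, against 387 to 421 CPM in controls, and its log2 fold change was -0.27 without mutant 4 and -0.75 without mutant 1. Grm4, the glutamate receptor of parallel fibre terminals, was at 26.9 to 40.3 CPM in mutants and 36.7 to 59.7 CPM in controls, with a log2 fold change of -0.41 (SE 0.16). Slc17a7, the vesicular glutamate transporter that granule cells use as they mature, was at 18.8 to 32.7 CPM in mutants and 16.7 to 30.5 CPM in controls, and the calcium sensor Syt1 had means of 385 and 386 CPM in mutants and controls.

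The 2 signalling genes went opposite ways. Pde1c, a calcium-dependent phosphodiesterase (chromosome 6), was at 178, 161, 141 and 221 CPM in mutants and at 101.5, 128, 127 and 155.5 CPM in controls. Only control 4 exceeded a mutant library. The log2 fold change was 0.46 (SE 0.16, edgeR adjusted p = 0.381). Vsnl1, a neuronal calcium sensor (chromosome 12), was at 186, 131, 110.3 and 43.0 CPM in mutants and at 208, 173, 195 and 187 CPM in controls. Mutant 1 was among the controls, mutants 2 to 4 below them, and mutant 4 furthest. The log2 fold change of -0.70 (SE 0.32, edgeR adjusted p = 0.398) was -0.42 without mutant 4 and -1.02 without mutant 1.

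Set side by side, the early postmitotic and the synaptic genes had similar medians (-0.26 and -0.34), and each class held genes of both directions, early 1 higher and 7 lower, synaptic 3 higher and 8 lower. The difference of medians, early less synaptic, was 0.08, and it was 0.01 to 0.09 with 1 library left out. It was -0.18 among P libraries alone and 0.12 among R libraries alone.

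Other genes of these kinds were counted from separate lists. All 14 other neurite and cytoskeleton genes had lower means in mutants (median -0.21), as did 15 of 16 other presynaptic genes (median -0.32, or -0.17 without mutant 4), and 0 of either list passed (edgeR adjusted p at least 0.381). The summed level of the other presynaptic genes was 4369.9, 4023, 3601 and 2839.5 CPM in mutants 1 to 4 and 3944 to 4898 CPM in controls. Of 12 other granule neuron genes, 8 had higher means (median 0.16) and 0 passed. At an unadjusted p under 0.05 there were 3 of these 12, Grin2c, Sema6a and Reln, all higher, where 6.94% of all genes were such. Lower at that level were 5 of the 14 neurite and cytoskeleton genes and 6 of the 16 presynaptic genes, where 5.7% of all genes were. The late marker Gabra6 was barely detected, at 0.344 to 0.892 CPM in mutants and 0.312 to 0.640 CPM in controls.

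Marker lists of other cells also differed in mean level between the groups, some in one direction and some in both. In each of these lists 0 genes passed (edgeR adjusted p at least 0.381). Brainstem genes, 11 of 11 lower, summed to 162, 111, 107 and 13.0 CPM in mutants 1 to 4 and to 161 to 196 CPM in controls, and their part in the lower values was not tested. Granule precursor genes, 10 of 10 higher, summed to 1289, 1631, 1850.0 and 2503 CPM in mutants 1 to 4 and to 1243 to 1490.5 CPM in controls, and genes of dividing cells to 1225 to 2145 CPM in mutants and 1049 to 1203 CPM in controls. Choroid plexus genes, 8 of 8 higher, summed to 3849 to 6484 CPM in mutants and 1552 to 3556 CPM in controls, and genes of GABAergic interneurons, 5 of 5 lower, to 318 to 482 CPM in mutants and 457 to 606 CPM in controls. Oligodendrocyte lineage genes, 8 of 9 lower (median -0.59), summed to 644 to 1245 CPM in mutants and 1246 to 1873 CPM in controls. Microglial genes were 7 of 7 lower (median -0.30), Purkinje cell genes 6 of 6 higher (median 0.35), and genes of endothelium and pericytes 7 of 7 higher (median 0.32). Astroglial genes were mixed, 5 higher and 3 lower (median 0.13). Genes of cerebellar nuclei and unipolar brush cells were mixed too, 2 higher and 3 lower (median -0.15). Without mutant 4 the medians were -0.52 for brainstem genes (-0.92 with it), 0.25 for precursors (0.44), 0.26 for dividing cells (0.48) and -0.26 for GABAergic interneurons (-0.50). They were 0.88 for choroid plexus (0.87), -0.45 for the oligodendrocyte lineage, -0.21 for microglia, 0.29 for Purkinje cells and 0.28 for endothelium and pericytes. For astroglia the median was then 0.01, and for cerebellar nuclei and unipolar brush cells 0.03. The part of all these cells in the values of the 33 genes was not tested. When Hox level was a term of the fit, the median of the early postmitotic genes was -0.10 and that of the synaptic genes 0.00, and 0 of the 33 genes passed (smallest edgeR adjusted p = 1.0). Hox level was itself lower in mutants (median -0.87) and lowest in mutant 4, so this term overlaps with genotype. With it 2.77% of all genes had an unadjusted p under 0.05, against 12.6% without it. In that fit the log2 fold changes of Nfia, Fat2, Cadps2 and Pde1c were 0.24, 0.26, 0.24 and 0.30, and those of Stmn3 and Gap43 were -0.40 and -0.17.

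**Figure D3:**
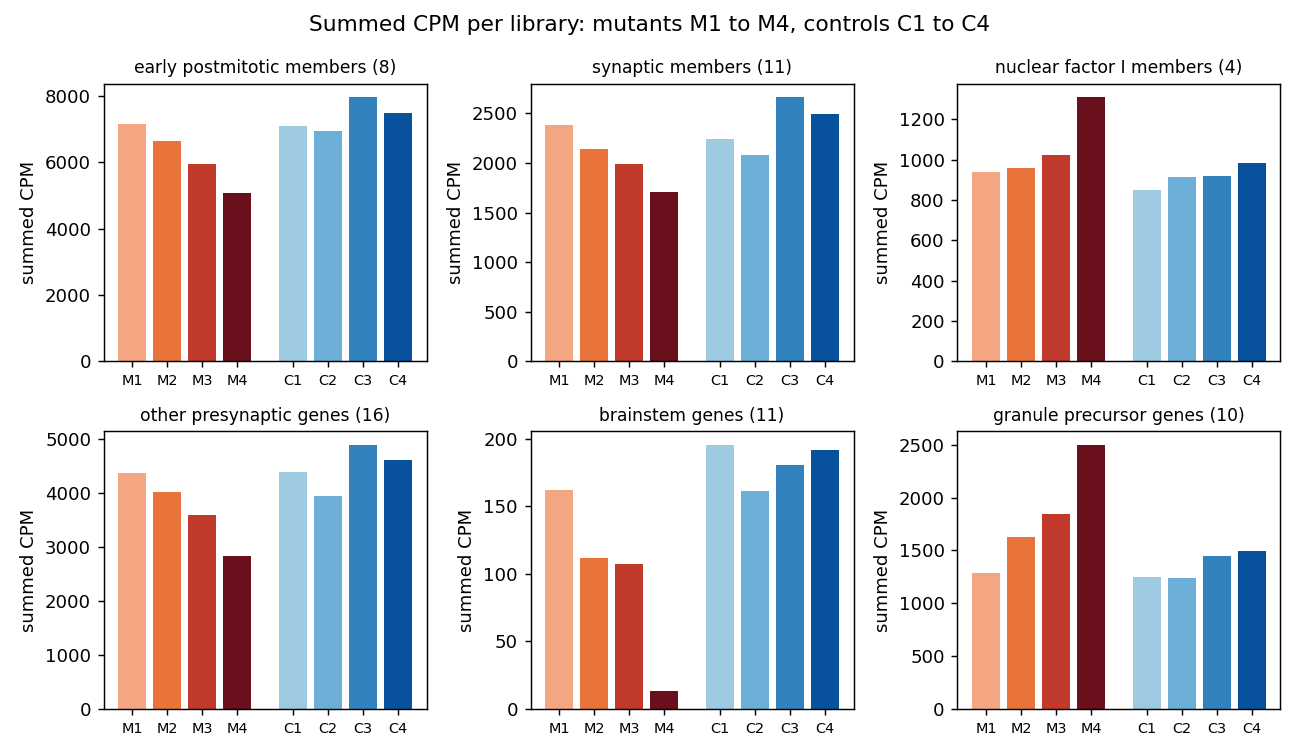
Bars are the summed CPM of each gene list in each library, mutants M1 to M4 left of controls C1 to C4. In M4 the early postmitotic, synaptic, other presynaptic and brainstem sums are the lowest of the 8 libraries (5088, 1709, 2839.5 and 13.0 CPM) and the nuclear factor I and precursor sums the highest (1312 and 2503 CPM).

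Mean differences between genotypes in these libraries were not the same under the 2 title letters. The R mutants include mutant 4, the lowest library for 16 of the 33 genes. The counts by letter that follow were not repeated without it. Among P libraries 22 of the 33 genes had higher means in mutants, with a median log2 fold change of 0.10, and among R libraries 11 did, with a median of -0.37, while 49.4% and 51% of all genes tested under both letters were higher. The 33 genes divided evenly: 11 were higher under both letters, 11 lower under both, and 11 higher under P but lower under R, with 0 the other way. Over all genes these shares were 27.6%, 27.2%, 21.8% and 23.4%. The 11 higher under both were Neurod1, Neurod2, Nfia, Nfib (0.00 under P), Nfix, Dcx, Fat2, Cbln1, Cbln3, Cadps2 and Pde1c, and the 11 lower under both were Tubb3, Stmn2, Stmn3, Gap43, Nrn1, Cbln2, Snap25, Syn2, Syp, Grm4 and Vsnl1.

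A test of the difference between letters called 3 of the 33, Mapt, Astn1 and Syt1, each with a lower fold change under R, where 0.956% of all genes were called in that direction and 3.2% in either. Mapt was at 0.15 under P and -0.74 under R (interaction -0.87, edgeR adjusted p = 0.0358), Astn1 at 0.15 and -0.63 (adjusted p = 0.0336) and Syt1 at 0.32 and -0.37 (adjusted p = 0.04995, close to the threshold). The 3 calls stood without mutant 4 and without mutant 3, where 17 of the 33 and 13.5% of all genes were called, and ended without any one of the other libraries, mutants 1 and 2 and controls 1 to 4 (adjusted p of 0.0634 to 0.214 for the 3 genes). Each letter held 2 libraries of each genotype. Summary lines that name no gene took 33.6 and 34.3% of all counts in P mutants and 30.1 and 31.2% in P controls, against 25.9 and 26.2% in R mutants and 24.8 and 26.3% in R controls, and their part in the difference was not tested.

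**Figure D4:**
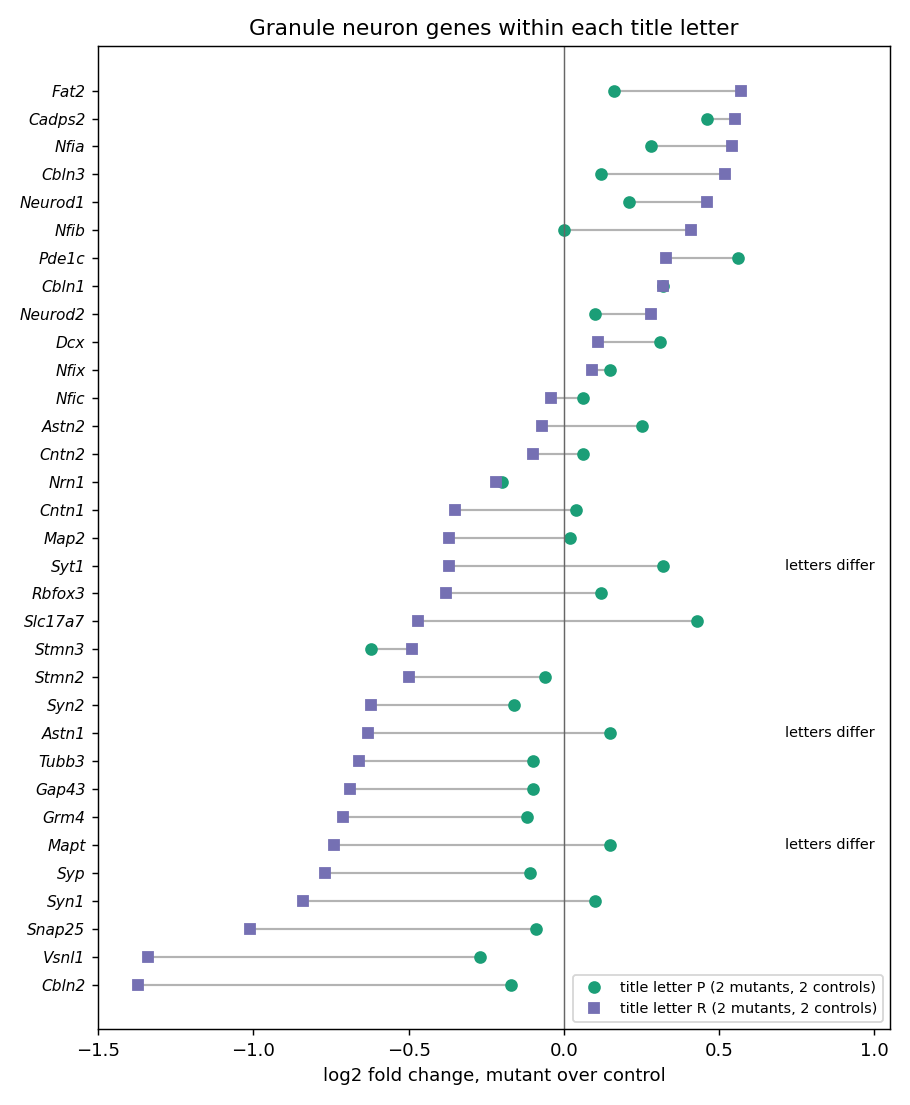
Each row is 1 gene, with the log2 fold change of mutant over control among the 4 P libraries (circles) and the 4 R libraries (squares). Snap25 lies further left under R (-1.01) than under P (-0.09), Cbln1 is alike under both (0.32 and 0.32), and the 3 genes marked passed the test of the difference.

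Reads per exon bin gave a second view of the same libraries. The 33 genes had 395 bins tested. By Simes' method 0 of the 33 differed in bin use between mutants and controls, where 0.00749% of 13351 genes did, and by the gene-level F test 0 did, where 0.0225% did (edgeR, adjusted over all genes). At an unadjusted Simes p under 0.05 there were also 0 of the 33 and 0.225% of all genes. Evenly spread p-values would place a share of 0.05 of all genes there, so this test picked out very few genes of any kind. The 0 of the 33 therefore cannot show that bin use was unchanged. Shares of a gene's bin counts had no overlap between groups for 4 of the 395 bins, 2 each in Cadps2 and Pde1c, or 1.01%, where 1.98% of all bins tested had none. For Cadps2 bin 17 the share was 1.72 ± 0.159% in mutants and 1.42 ± 0.0430% in controls (SD, n = 4 each), a small difference that did not pass.

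Snap25 had the smallest Simes p of the 33 (0.411). Its bin 5 held 0.891, 1.30, 1.45 and 3.10% of the Snap25 bin counts in mutants 1 to 4 and 0.889, 0.909, 0.813 and 1.03% in controls 1 to 4. Mutants 2 to 4 were above all controls and mutant 4 stood furthest off, the library in which Snap25 and the Hox genes were lowest. The bin's own test had an unadjusted p of 0.0457 and an adjusted p of 1.0 by edgeR. The bins carry only their order along the gene, so bin 5 is not tied to a known exon.

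Promoter sequences were available from RefSeq (GRCm38.p6) for 24 of the 33 genes, and those of Nfia, Fat2 and Stmn3 are shown because their 2 groups did not overlap. Gap43 and Nrn1, which did not overlap either, had no sequence available. Each is the 250 bases before the start site on the gene's strand, with capitals for CAGATG on either strand, an E-box of the kind that Neurod1 and Atoh1 bind. The stretches are chr4:97581693-97581942 (plus strand) for Nfia, chr11:55312258-55312507 (minus strand) for Fat2 and chr2:181314501-181314750 (minus strand) for Stmn3.
Nfia: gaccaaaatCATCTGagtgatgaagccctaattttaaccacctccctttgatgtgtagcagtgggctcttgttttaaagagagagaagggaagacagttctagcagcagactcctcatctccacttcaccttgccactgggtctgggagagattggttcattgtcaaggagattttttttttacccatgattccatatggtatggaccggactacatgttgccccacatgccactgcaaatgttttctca
Fat2: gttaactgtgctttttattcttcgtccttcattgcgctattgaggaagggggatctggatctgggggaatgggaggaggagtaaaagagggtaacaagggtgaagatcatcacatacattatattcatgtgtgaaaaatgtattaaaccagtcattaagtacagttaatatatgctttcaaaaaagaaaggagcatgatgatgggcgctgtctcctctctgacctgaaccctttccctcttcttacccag
Stmn3: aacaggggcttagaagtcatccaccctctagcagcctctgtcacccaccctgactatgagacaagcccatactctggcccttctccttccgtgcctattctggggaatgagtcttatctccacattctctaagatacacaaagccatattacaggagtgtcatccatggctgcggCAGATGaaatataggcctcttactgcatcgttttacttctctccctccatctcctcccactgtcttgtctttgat
The match begins 241 bases before the start in Nfia and 75 bases before it in Stmn3, a gene that was higher and a gene that was lower in mutants, and Fat2 has none in these 250 bases. In windows of 300 bases (250 before and 50 after the start), CAGATG was found in 6 of the 24 genes (25%) and in 19.2% of all 27025 genes with a window, and the E-box CAGCTG in 4 (16.7%) and in 18.3%. The single-arm nuclear factor I motif TTGGCA was in 7 of the 24 (29.2%) and in 16.1% of all genes, none of them Nfia, Fat2 or Stmn3. TTGGC followed after 5 bases by GCCAA, the full nuclear factor I site, was in 0 of the 24 and in 0.0444% of all genes. All motifs were searched on both strands, the full site overlaps TTGGCA where its first spacer base is A, and a match is a description of the letters only.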

How the data were processed

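PolyA RNA libraries of 8 whole cerebella were analysed from the counts per gene and per exon bin that the authors deposited, whole numbers that had not been normalized. Per the submitters' processing notes, the tools included TopHat, HTSeq and DESeq2 and the build was mm9. No version, annotation or strand setting is given in the sources used here, so reads of genes that overlap on opposite strands may be shared. The 5 summary lines of each gene table (24.8 to 34.3% of all counts) and the 4 of each bin table were left out. Pairs of libraries within a group differed beyond counting noise (chi-square per gene 7.42 to 81.0), and each is 1 pup per the labels' protocols.

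Genes were tested with edgeR 4.0.16 (R 4.3.3) (quasi-likelihood, robust, genotype the only term) after filterByExpr and TMM scaling, over 15789 genes with Benjamini-Hochberg adjustment at 0.05. CPM are on TMM-scaled library sizes, an SE is the fold change over the root of its F value, and levels are not corrected for length. Bin use was tested with diffSpliceDGE over 13351 genes. DESeq2 1.42.0 was an alternative. The steps were tested on simulated counts, drawn independently for each gene with no outlying library and no shift in tissue make-up. That simulation therefore cannot show how the tests behave in these libraries. No list was given a test. Genes given in every library were those without overlap between groups, the 2 with the smallest p in each class and the 3 with the most counts, or are said to be chosen otherwise. Gene members, classes, lists and alternatives were chosen with earlier results of these data known.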

Additional observations from a re-analysis of the deposited data

Results flagged for a closer look

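Chance flags about 1 in 20 groups of 4 libraries for a value far from the other 3, and 4 of the 66 groups examined were flagged. Mutant 4 was far above the other mutants for Nfib (536 CPM) and Cntn2 (204 CPM). Control 4 was far above the other controls for Neurod1 (175 CPM), and control 1 for Nrn1 (116 CPM).

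The fold change differed between the title letters for Mapt (R less P, -0.87 on the log2 scale), Astn1 (-0.75) and Syt1 (-0.67) by the interaction test. These calls ended when mutant 1, mutant 2 or any one control was left out. For Mapt and Syt1 every P mutant was also above both P controls and every R mutant below both R controls, with fold changes of -0.74 and -0.37 under R on the log2 scale. Rbfox3 showed the same crossing, with -0.38 under R, and its interaction did not pass (edgeR adjusted p = 0.0780).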

How the results depend on the processing

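No alternative called any of the 33 genes between mutants and controls or in exon bin use, and all genes had 52 calls by DESeq2, 5 among P libraries, 1 among R libraries and 1 without mutant 1, against 0 in the report. Of 594 values (33 genes, 18 alternatives), 543 kept their direction and 51 reversed, and the cause was not tested. Log2 fold changes that reversed were, among P libraries alone, Rbfox3 0.12, Map2 0.02, Mapt 0.15, Cntn1 0.04, Cntn2 0.06, Astn1 0.15, Slc17a7 0.43, Syt1 0.32 and Syn1 0.10, and among R libraries alone, Nfic -0.04 and Astn2 -0.07. With mutants 2 and 4 left out it was Nfic -0.06. With Hox level as a term they were Nfic -0.04, Nfix -0.03, Map2 0.04, Slc17a7 0.06, Cbln2 0.00 and Syt1 0.07. With other neurite genes as a term they were Neurod1 -0.05, Neurod2 -0.19, Nfib -0.06, Nfic -0.06, Nfix -0.13, Map2 0.17, Mapt 0.15, Cntn1 0.12, Astn1 0.13, Slc17a7 0.19, Cbln2 0.41, Cbln3 -0.08, Snap25 0.14, Syt1 0.19, Syn1 0.12 and Vsnl1 0.14. With 1 library left out, signs varied for Nfic (-0.04 to 0.07), Cntn2 (-0.17 to 0.07), Slc17a7 (-0.25 to 0.08) and Syt1 (-0.11 to 0.08).

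The median difference of early less synaptic genes (0.08) was -0.18 among P libraries, -0.10 with the Hox term, -0.15 with the neurite term and 0.27 with the nuclear and adhesion genes joined to the early class. The 3 calls between title letters were 0 to 17 with 1 library left out (0.0063 to 13.5% of all genes) and 1 (Mapt) with the Hox term (1.55%), alternatives chosen after seeing the data. No paired analysis was possible because the labels' replicate numbers do not pair mutants with controls. Each of the 33 genes had at least 151 counts in every library, and SEs of the log2 fold changes ran between 0.10 and 0.41.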
